A study of Homo sapiens with 12 samples.

Results

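HLA class I molecules display peptides from inside the cell at its surface, and 9 genes of this presentation route were followed in leukemia cells after knockdown of the RNA helicase gene DDX5 and after a compound named RX-5902. The 9 genes were HLA-B, HLA-C, HLA-E, HLA-F, B2M, TAP1, TAP2, TAPBP and NLRC5. They were chosen by name with earlier results of these data known, so the shares of them called are a description only. They were matched by gene symbol to the identifiers in the count tables, and all 9 were found among 61906 genes. The cells were MOLM-14, an established human acute myeloid leukemia line, so every group shares that line's genome. In the knockdown experiment, lentivirus carrying a control shRNA (shControl) or an shRNA against DDX5 (shDDX5) was put into the cells by spinoculation and RNA was taken 96 hours later. In the compound experiment, the groups were cells in 0.1% DMSO, the solvent, and cells in 100 nM RX-5902, a compound reported to bind the phosphorylated form of DDX5, both for 6 hours. Each of the 4 groups had 3 RNA-seq libraries, called biological replicates in the labels. The labels name a single shRNA against DDX5 without its sequence, give no infection for the DMSO and RX-5902 cells, and do not say whether infected cells were selected. Time, infection and agent therefore cannot be told apart between the experiments.

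In a class I molecule, a polymorphic heavy chain (HLA-B or HLA-C, or the less variable HLA-E and HLA-F) pairs with the invariant light chain beta-2 microglobulin, the product of B2M. TAP1 and TAP2 form the transporter that pumps peptides from the cytosol into the endoplasmic reticulum, and TAPBP (tapasin) holds empty class I molecules at that transporter while they are loaded. NLRC5 is a protein of the NLR family that acts in the nucleus and switches on class I genes through a promoter module of SXY boxes, and interferons raise the same genes through STAT and IRF factors. In myeloid leukemia these genes set what T cells can see of the cell, while HLA-E and the classical chains are also read by natural killer cell receptors.

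The class I genes rose in the knockdown, led by TAP1 at 3.64-fold and HLA-C at 2.26-fold, while TAP2 and the activator gene NLRC5 did not pass the test. Of 8 genes that could be tested, 6 rose and 0 fell, where 28.4% of all genes tested were called higher and 28.3% lower. The same 6 were called when shDDX5 replicate 1 was left out, where 35.7% of all genes were called higher and 35.7% lower. With RX-5902 the rises ran from 1.13-fold for HLA-C to 1.44-fold for TAP1, and 7 of 8 genes rose, where 32.2% of all genes were called higher. TAP2 went the other way from TAP1 and fell by 0.69 on the log2 scale (SE 0.05), the 1 gene of 8 that fell, where 31.9% of all genes were called lower. HLA-F, with 0 to 12 counts per library, passed no expression filter and was not tested. Treated and control libraries did not overlap for 6 of 8 genes in the knockdown, all higher, where 33.1% of all genes were higher without overlap and 32.9% lower. With RX-5902 they did not overlap for all 8, 7 higher and 1 lower, where those shares were 36.9% and 30.6%. A call here is a Benjamini-Hochberg adjusted p under 0.05 in edgeR's quasi-likelihood test over all genes tested in that experiment.

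Library totals ran from 17603589 to 20367575 counts, and levels are given as CPM, counts relative to library size, scaled by TMM factors over all 12 libraries. The shRNA lowered its target: DDX5 stood at 761, 726 and 735 CPM in shControl and at 166, 166 and 163 CPM in shDDX5, while it was at 833, 844 and 833 CPM in DMSO and 1104, 1060.3 and 1022 CPM in RX-5902. The library of shDDX5 replicate 1 stood apart. Its counts differed from replicates 2 and 3 by a chi-square of 52.5 and 52.7 per gene, against 1.76 to 6.62 for every other pair of replicates, and mitochondrial genes took 10.3% of its counts against 5.19 to 8.09% elsewhere. The fold changes and list counts of the knockdown are therefore given with and without it, and ratios between genes by library. All 13 markers of a monocytic myeloid leukemia line were detected. Their summed level was 4639 to 4987 CPM in shControl and 13979 to 15846 CPM in shDDX5, most of it LYZ, the lysozyme gene of monocytes and granulocytes, whose mean went from 3443 to 13212 CPM. In edgeR's test 7 of the 13 were higher and 4 lower in the knockdown, and 9 and 4 without shDDX5 replicate 1. The 4 lower were FLT3 (mean 386 in shControl and 275 CPM in shDDX5), PTPRC (232 and 129), HOXA9 (31.4 and 10.4) and MEIS1 (20.2 and 3.09). Markers of other cells were low: the summed CPM of the fibroblast list was 1.55 to 2.09 in shControl and 4.62 to 7.28 in shDDX5, that of the packaging and epithelial list 3.46 to 3.68 and 5.56 to 7.76, that of the B cell list 1.49 to 2.51 and 1.42 to 2.22, and that of the dendritic cell list 1.50 to 1.99 and 1.03 to 1.30. The T and NK list summed to 72.6 to 79.8 CPM in shControl and 60.8 to 71.7 CPM in shDDX5, mostly from NCAM1 and GNLY, and its defining CD3G was at 0 in all libraries, as were MS4A1, COL3A1 and DCN. Its CD3D had a mean of 1.43 CPM in shControl and 0.240 CPM in shDDX5, and was at 0 in DMSO and RX-5902. In DMSO and RX-5902 the myeloid list summed to 1769 to 1810 and 1870 to 1905 CPM, the T and NK list to 156 to 166 and 156 to 164, and the B cell list to 1.65 to 1.77 and 2.23 to 2.48. The dendritic, fibroblast and packaging lists stayed within 0.394 to 1.39 CPM there. With at least 10 counts in a library as the limit, 3 of 8 T and NK, 3 of 5 B cell, 1 of 7 dendritic, 2 of 5 fibroblast and 1 of 5 packaging markers were detected. The part of these shifts in the class I results was not tested, and in such bulk samples fewer cells of a type and less RNA per cell cannot be told apart.

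Promoter windows of 250 bases before the gene start were at hand for 7 of the 9 genes, from RefSeq on GRCh38.p14, and were searched on either strand for 5 motifs. These are shown because the class I genes are known to share interferon-response and SXY-type letters before their starts. The core of the interferon-stimulated response element, read as GAAA, any 2 bases and GAAA again, was found in HLA-F, B2M, TAP1, TAP2 and TAPBP, 5 of 7 windows, against 3.02% of 35116 RefSeq promoter windows of the same length. HLA-B and HLA-C lacked that core but held a close form, GAA, any 2 bases and GAAAC, on the reverse strand, found in 1.23% of all windows. That form was chosen after their sequences were read, so its presence there is a description only. In HLA-B, HLA-C, TAP1 and HLA-F the element lies on the reverse strand and in B2M, TAP2 and TAPBP on the forward strand. In the lines below, each read 5′ to 3′ on the gene's strand, capitals mark the element or its overlapping copies. The first 4 are stretches outside the deposited exons, at chr6:31357294-31357429 for HLA-B, chr6:31272131-31272342 for HLA-C, chr6:32853817-32853954 for TAP1 and chr6:32838740-32838989 for TAP2. The last 3 are the element alone with its flanks, at chr15:44711368-44711393 for B2M, chr6:33314079-33314103 for TAPBP and chr6:29723270-29723295 for HLA-F.
HLA-B: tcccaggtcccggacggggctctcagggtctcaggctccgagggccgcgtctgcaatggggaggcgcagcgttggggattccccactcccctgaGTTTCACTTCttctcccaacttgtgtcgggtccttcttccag
HLA-C: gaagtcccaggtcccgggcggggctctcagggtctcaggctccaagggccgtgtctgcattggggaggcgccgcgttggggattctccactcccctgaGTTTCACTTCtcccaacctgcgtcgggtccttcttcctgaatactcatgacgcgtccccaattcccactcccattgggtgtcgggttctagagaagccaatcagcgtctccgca
TAP1: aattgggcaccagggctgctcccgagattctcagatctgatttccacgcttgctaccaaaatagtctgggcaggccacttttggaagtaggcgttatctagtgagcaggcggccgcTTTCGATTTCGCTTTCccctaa
TAP2: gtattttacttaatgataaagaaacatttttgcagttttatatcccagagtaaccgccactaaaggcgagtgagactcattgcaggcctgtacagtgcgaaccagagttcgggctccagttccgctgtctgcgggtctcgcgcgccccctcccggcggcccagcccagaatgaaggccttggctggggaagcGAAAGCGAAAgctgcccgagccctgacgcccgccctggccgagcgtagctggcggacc
B2M: tctaaGAAAAGGAAACTGAAAacggg
TAPBP: tggagGAAAGTGAAAGTGAAAggag
HLA-F: ccccagagTTTCTCTTTCtctcccaa
The element ended 147 bases before the RefSeq start in HLA-B and in HLA-F, 143 before it in HLA-C, 129 in B2M, 119 in TAP1, 49 in TAP2 and 5 in TAPBP. B2M, TAP1 and TAPBP held 2 overlapping copies of the core. The CCAAT letters bound by NF-Y were in 5 of 7 windows (all windows 32.0%), the TGACG letters of CREB-type factors in 4 of 7 (21.2%) and the E-box CANNTG in 1 of 7 (61.8%), in B2M, where it overlaps the TGACG match. The TAP1 start lies 488 bases from that of PSMB9, an immunoproteasome gene read in the other direction, so the stretch shown for TAP1 lies between those starts. A match is a string of letters and says nothing of binding in these cells.

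**Figure D1:**
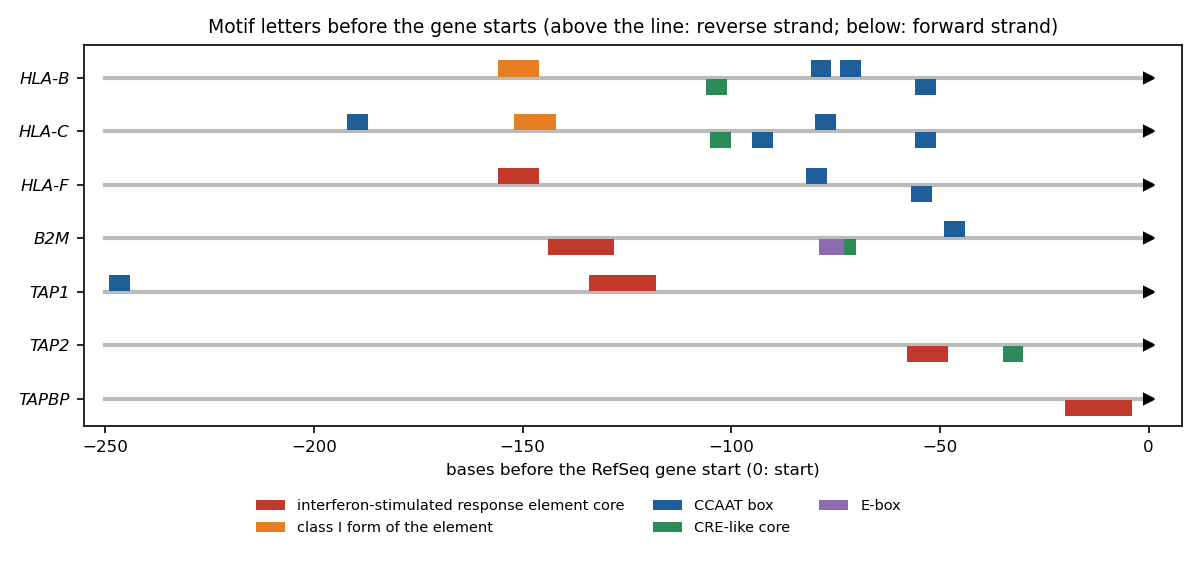
Motif matches in the 250 bases before the RefSeq start of 7 genes; the x axis is the distance from the start in bases and each colored block is 1 match, drawn below the line for the gene's strand and above it for the reverse strand. The response element or its class I form stands 143 to 156 bases before the start in HLA-B, HLA-C and HLA-F and ends within 5 bases of it in TAPBP.

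The classical heavy chains rose in either experiment, HLA-C far more in the knockdown than with the compound. HLA-C (chr6:31268749-31272130, minus strand, in the deposited tables) encodes the heavy chain that is the chief ligand of killer cell immunoglobulin-like receptors. Its level was 609.7, 646 and 629.9 CPM in shControl and 1877, 1186 and 1268 CPM in shDDX5. The 3 shDDX5 libraries all lay above the 3 controls, and replicate 1 was the highest. The log2 fold change was 1.18 (SE 0.16, edgeR adjusted p = 0.000435) and 0.96 without shDDX5 replicate 1. In DMSO it was 631, 639 and 609 CPM and in RX-5902 678, 748 and 744 CPM, groups that lay close together without overlapping. The log2 fold change with the compound was 0.17 (SE 0.04, edgeR adjusted p = 0.000399).

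HLA-B (chr6:31353872-31367067, minus strand) encodes the most polymorphic classical chain. It stood at 952, 982 and 961 CPM in shControl and at 2210.5, 1324 and 1430.4 CPM in shDDX5. In DMSO it was at 847, 822 and 788 CPM and in RX-5902 at 1111, 1135 and 1159 CPM. Treated and control libraries were separate in both experiments. The log2 fold change was 0.75 in the knockdown (SE 0.18, edgeR adjusted p = 0.00659), 0.51 without shDDX5 replicate 1, and 0.43 with RX-5902 (SE 0.04, edgeR adjusted p = 5.79e-12). HLA-C thus took a larger part of the HLA-B and HLA-C reads in the knockdown and a smaller one with the compound: its share of their summed CPM was 39.4% ± 0.345 in shControl and 46.7% ± 0.707 in shDDX5, and 43.3% ± 0.565 in DMSO and 38.9% ± 0.935 in RX-5902 (SD, n = 3). In shDDX5 replicates 1, 2 and 3 the share was 45.9%, 47.3% and 47.0%. The groups did not overlap in either experiment, and the exact two-sided permutation test gave p = 0.1, the smallest that 3 against 3 allows. Classical HLA genes are near-identical in long stretches and differ between people and the reference, so how reads were split between HLA-B and HLA-C is uncertain. The HLA-B exons also overlap 4 other annotated genes, each of which held at most 3 counts over the libraries of an experiment.

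HLA-E (chr6:30489509-30494194, plus strand) presents leader peptides of other class I chains to the NKG2A receptor. Its values were 347, 339.9 and 361 CPM in shControl, 638, 526 and 551 CPM in shDDX5, 273, 274 and 268 CPM in DMSO, and 346, 356 and 365 CPM in RX-5902. Every treated library lay above its own controls. The rise was 0.69 on the log2 scale in the knockdown (SE 0.09, edgeR adjusted p = 0.000368), 0.62 without shDDX5 replicate 1, and 0.35 with RX-5902 (SE 0.04, edgeR adjusted p = 6.11e-10). HLA-F (chr6:29722775-29738528, plus strand), a nonclassical chain that can reach the surface without peptide, had 2, 1 and 5 counts in shControl, 1, 0 and 4 in shDDX5, 2, 5 and 5 in DMSO and 6, 8 and 12 in RX-5902. Its highest level was 0.581 CPM, and a count of 0 in shDDX5 replicate 2 allows up to 0.170 CPM. The RX-5902 counts all lay above those in DMSO, while the knockdown groups overlapped. HLA-F exons share 535 bases with HLA-F-AS1 on the opposite strand. That gene held 29 counts over the knockdown libraries and 123 over the compound libraries. Other opposite-strand genes share 674 and 257 bases with HLA-F and held 0 counts. The part of antisense reads in the HLA-F counts was not tested. In an edgeR fit with no filter on low counts, HLA-F was not called in either experiment.

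**Figure D2:**
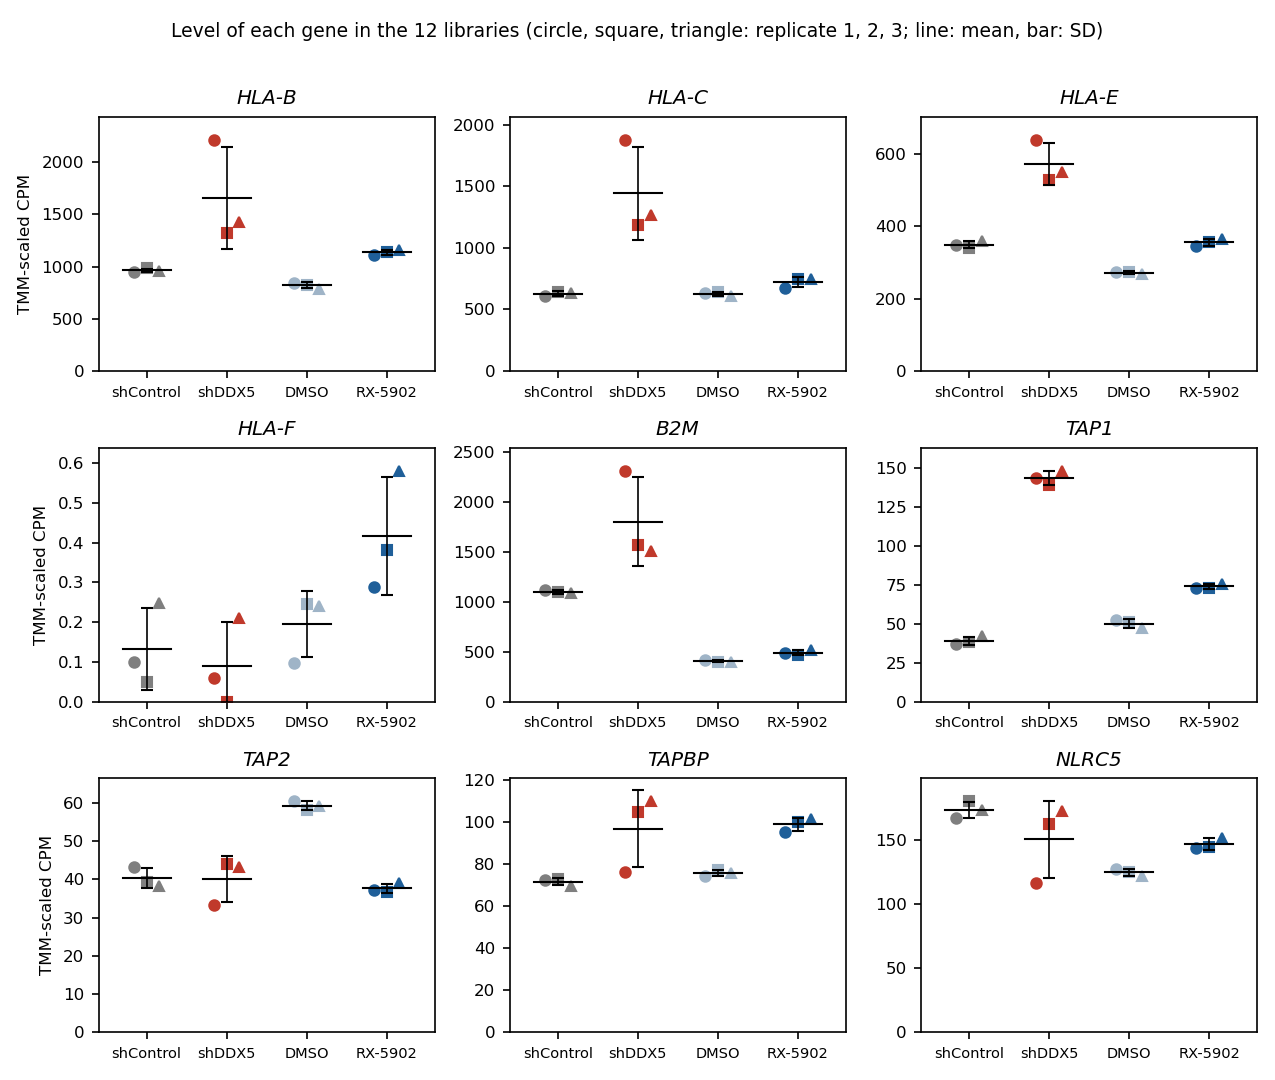
TMM-scaled CPM (y axis, linear from 0, a scale of its own for each gene) of the 9 genes in the 12 libraries, by group on the x axis; points are libraries, black lines means and bars the SD over 3 libraries. shDDX5 replicate 1 (red circle) lies above the other shDDX5 libraries for HLA-B, HLA-C, HLA-E and B2M, below them for TAP2, TAPBP and NLRC5, and between them for TAP1.

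B2M (chr15:44711358-44718851, plus strand), the light chain that all class I heavy chains need, rose with them. It stood at 1118, 1095 and 1084 CPM in shControl and 2312, 1573 and 1512 CPM in shDDX5, and at 418, 397 and 399 CPM in DMSO and 488, 469 and 515 CPM in RX-5902. The treated libraries were all higher than their controls, yet the groups of the compound experiment lay far below those of the knockdown experiment. The log2 fold change was 0.69 in the knockdown (SE 0.15, edgeR adjusted p = 0.00541), 0.48 without shDDX5 replicate 1, and 0.24 with RX-5902 (SE 0.04, edgeR adjusted p = 2.41e-06). Summed over HLA-B, HLA-C and HLA-E, the heavy chains went from 1943 ± 30.4 to 3670.3 ± 920.3 CPM in the knockdown and from 1717 ± 45.6 to 2214 ± 70.6 CPM with RX-5902 (SD, n = 3). The sum was 4726 CPM in shDDX5 replicate 1 and 3036 and 3249 CPM in replicates 2 and 3. The ratio of that sum to B2M was 1.77 ± 0.0524 in shControl and 2.04 ± 0.109 in shDDX5, and 4.24 ± 0.110 in DMSO and 4.52 ± 0.223 in RX-5902 (SD, n = 3). In shDDX5 replicates 1, 2 and 3 it was 2.04, 1.93 and 2.15. The knockdown ranges of this ratio did not overlap, and those of the compound experiment did not either, though by little. For each, the exact two-sided permutation test gave p = 0.1, the smallest possible.

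The transporter genes parted company. TAP1 (chr6:32845209-32853816, minus strand) stood at 36.7, 38.0 and 41.9 CPM in shControl and 143, 139 and 148 CPM in shDDX5, and at 52.2, 50.9 and 47.1 CPM in DMSO and 72.7, 73.1 and 75.6 CPM in RX-5902. Relative to its mean it had the tightest shDDX5 group of the 8 tested class I genes, and replicate 1 lay between the other two. The log2 fold change was 1.86 in the knockdown (SE 0.09, edgeR adjusted p = 3.79e-06), 1.87 without shDDX5 replicate 1, and 0.52 with RX-5902 (SE 0.05, edgeR adjusted p = 2.09e-11). Its exons share 672 bases with PSMB8-AS1 on the opposite strand, which held 460 counts over the 6 knockdown libraries and 764 over the 6 compound libraries, against 731 to 2798 counts for TAP1 in a single library.

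TAP2 (chr6:32821833-32838739, minus strand), its partner in the transporter, did not follow. It stood at 43.3, 39.3 and 38.3 CPM in shControl and 33.2, 43.9 and 43.1 CPM in shDDX5, ranges that overlapped. The log2 difference was -0.02 (SE 0.13, 95% interval -0.32 to 0.27, edgeR adjusted p = 0.888), and 0.10 without shDDX5 replicate 1 (edgeR adjusted p = 0.147). In DMSO it was 60.3, 58.0 and 59.1 CPM and in RX-5902 37.3, 36.6 and 38.9 CPM, well apart. Its exons share 2023 bases with a same-strand gene that held 12 and 32 counts over the libraries of the respective experiments. The fall of 0.69 on the log2 scale (edgeR adjusted p = 7.53e-14) was the largest change of the 8 tested genes with the compound. Per kilobase of exon, the ratio of TAP1 to TAP2 was 1.85, 2.12 and 2.39 in shControl and 9.44, 6.91 and 7.50 in shDDX5. It was 1.89, 1.92 and 1.74 in DMSO and 4.26, 4.37 and 4.25 in RX-5902. TAP1 thus gained on TAP2 3.75-fold in the knockdown and 2.32-fold with RX-5902, with no overlap between groups (exact two-sided permutation p = 0.1 in each, the smallest possible with 3 against 3).

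PSMB9, which shares its start region with TAP1 and was picked for that reason after its values were seen, did not keep pace either. Its log2 difference was 0.25 in the knockdown (edgeR adjusted p = 0.287), -0.03 without shDDX5 replicate 1, and -0.17 with RX-5902 (edgeR adjusted p = 0.0216, a call lost in 9 of 16 alternative settings). The ratio of TAP1 to PSMB9 in CPM was 1.49 ± 0.0910 in shControl and 4.84 ± 1.34 in shDDX5, and 1.84 ± 0.113 in DMSO and 2.99 ± 0.200 in RX-5902 (SD, n = 3). In shDDX5 replicates 1, 2 and 3 it was 3.31, 5.40 and 5.82. TAP1 was higher relative to PSMB9 in every treated library than in any of its controls.

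TAPBP (chr6:33299694-33314284, minus strand) rose in both experiments, by 0.42 and 0.35 on the log2 scale. It stood at 72.5, 72.9 and 69.9 CPM in shControl and 76.2, 105 and 110.0 CPM in shDDX5, where replicate 1 was close to the controls. The log2 fold change was 0.42 (SE 0.14, edgeR adjusted p = 0.0352) and 0.58 without that library. This call is fragile: with any other single library of the experiment left out, the edgeR adjusted p lay between 0.0931 and 0.113. In DMSO it was 74.7, 77.2 and 75.7 CPM and in RX-5902 95.6, 100.4 and 101 CPM, a log2 fold change of 0.35 (SE 0.04, edgeR adjusted p = 1.30e-08). Its exons share 1397 bases with an opposite-strand gene that held 54 and 65 counts in the 2 experiments.

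NLRC5 (chr16:56989485-57083531, plus strand), the class I activator, stood at 167, 179.9 and 173 CPM in shControl and 116, 162 and 172 CPM in shDDX5. The lowest of these was replicate 1, and the groups overlapped. The log2 difference was -0.22 (SE 0.15, 95% interval -0.57 to 0.12, edgeR adjusted p = 0.235) and -0.06 without replicate 1 (95% interval -0.16 to 0.04). With RX-5902 it went from 128, 125 and 122 CPM in DMSO to 143, 144 and 152 CPM, a log2 fold change of 0.19 (SE 0.04, edgeR adjusted p = 7.87e-05).

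**Figure D3:**
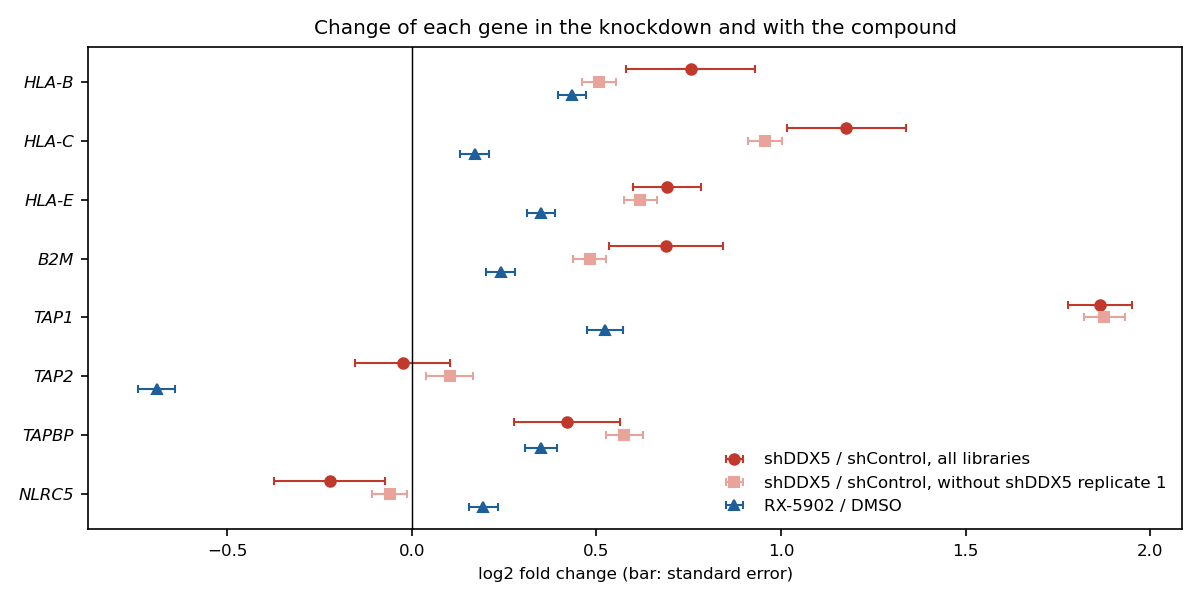
Log2 fold change (x axis) of the 8 tested genes, with bars for the standard error: shDDX5 over shControl with all libraries (red circles), the same without shDDX5 replicate 1 (pale squares), and RX-5902 over DMSO (blue triangles). TAP1 at 1.86 and HLA-C at 1.18 lead the knockdown, and TAP2 at -0.69 is the only gene below 0 with the compound.

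The changes of the 2 experiments were compared in 1 fit of all 12 libraries, as the knockdown change minus the compound change. Of 8 genes 4 had a higher change in the knockdown and 1 a lower one, where 24.1% and 28.6% of all genes tested were called. The difference was 1.32 on the log2 scale for TAP1 (SE 0.09, edgeR adjusted p = 5.60e-08), 0.99 for HLA-C (SE 0.18, 0.000433), 0.65 for TAP2 (SE 0.13, 0.000847) and 0.32 for HLA-E (SE 0.10, 0.0165). For TAP2 the difference came with no called change in the knockdown and a fall with the compound. NLRC5 was lower by -0.44 (SE 0.15, edgeR adjusted p = 0.0274), and -0.26 without shDDX5 replicate 1. Its call was lost in 8 of the 12 fits that left out a library, those without shControl replicate 2 or 3 or any 1 library of the compound experiment (edgeR adjusted p 0.0524 to 0.0759). HLA-B differed by 0.31 (95% interval -0.12 to 0.73, edgeR adjusted p = 0.212), TAPBP by 0.05 (-0.26 to 0.36, edgeR adjusted p = 0.795) and B2M by 0.43 (0.06 to 0.81, edgeR adjusted p = 0.0510). The B2M difference narrowly missed the threshold and was called in 10 of 21 alternative settings. Without shDDX5 replicate 1, B2M (0.23) and TAPBP (0.22) were called as well, with 28.4% of all genes called higher and 32.0% lower, while HLA-B stood at 0.06. Without shDDX5 replicate 2, HLA-B (0.46) and B2M (0.54) were called, and without replicate 3 B2M (0.56) was.

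With RX-5902, the calls of HLA-C, B2M and NLRC5 were lost in a pair of other fits. In the fit of all 12 libraries their edgeR adjusted p was 0.218, 0.0860 and 0.101, and in a test against a fold of 1.2 it was 1.00, 0.711 and 1.00. HLA-B, HLA-E, TAP1, TAPBP and TAP2 were called in both of these fits.

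The 4 groups ranked differently for different genes. Per kilobase of summed exon length, the level in shControl was 352 CPM for B2M, 251 for HLA-C, 209 for HLA-B and 119.5 for HLA-E. It was 14.0 for NLRC5, 10.8 for TAPBP, 8.20 for TAP1 and 3.89 for TAP2. In DMSO it was 249.9 for HLA-C, 177 for HLA-B, 129.7 for B2M, 93.0 for HLA-E, 11.4 for TAPBP, 10.6 for TAP1, 10.1 for NLRC5 and 5.71 for TAP2. The chains of the class I molecule were thus far above the transporter, tapasin and NLRC5 in either control. B2M led in shControl and stood below HLA-C and HLA-B in DMSO. The summed length counts every annotated exon, so it only roughly makes genes comparable. Of the HLA-B length, 30.7% is shared with the pseudogene DHFRP2, which held at most 3 counts in an experiment. The order of HLA-C above HLA-B depends on this length. In plain CPM HLA-B was above HLA-C, at 965 against 629 in shControl and 819 against 627 in DMSO.

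In order of mean CPM, HLA-B and HLA-C rose from DMSO through shControl and RX-5902 to shDDX5, and HLA-E followed the same order. Neighbouring groups overlapped between DMSO and shControl for HLA-C and between shControl and RX-5902 for HLA-E, and were separate at the other steps. TAP1 ran from shControl (38.9 ± 2.68) through DMSO (50.1 ± 2.62) and RX-5902 (73.8 ± 1.60) to shDDX5 (143 ± 4.69, SD, n = 3), with no overlap at any step. B2M ran from DMSO (405 ± 11.8) through RX-5902 (491 ± 22.9) and shControl (1099 ± 17.1) to shDDX5 (1799 ± 445, SD, n = 3), again with no overlap. TAP2 was highest in DMSO (59.2 ± 1.18, SD, n = 3), and its other 3 groups overlapped with their neighbours. NLRC5 was lowest in DMSO, and the RX-5902, shDDX5 and shControl ranges overlapped at each step. For TAPBP, DMSO overlapped with shDDX5 and shDDX5 with RX-5902. Orders that cross the experiments rest on 1 scaling of all 12 libraries and were not tested.

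For different class I genes shDDX5 replicate 1 differed from its group in opposite directions. Its log2 difference from the mean of replicates 2 and 3 was 0.68 for HLA-B, 0.61 for HLA-C, 0.58 for B2M, 0.24 for HLA-E, 0.00 for TAP1, -0.38 for TAP2, -0.49 for TAPBP and -0.52 for NLRC5. All genes tested were split by summed exon length into 5 classes of near-equal size, and the median of this difference was taken in each. It was 0.22 in the class that holds HLA-C (2507 bases), HLA-E (2922) and B2M (3121), 0.06 in that of HLA-B (4623) and TAP1 (4738), -0.08 in that of TAPBP (6648) and -0.26 in that of TAP2 (10357) and NLRC5 (12386). HLA-B and TAP1, close in length, stood at 0.68 and 0.00. With a correction for gene length in each library, 6 genes were again called higher and 0 lower, where 30.7% and 29.1% of all genes were. The corrected log2 fold change was 1.04 for HLA-C, 0.78 for HLA-B, 0.62 for B2M, 0.50 for TAPBP, 0.14 for TAP2 and -0.04 for NLRC5.

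**Figure D4:**
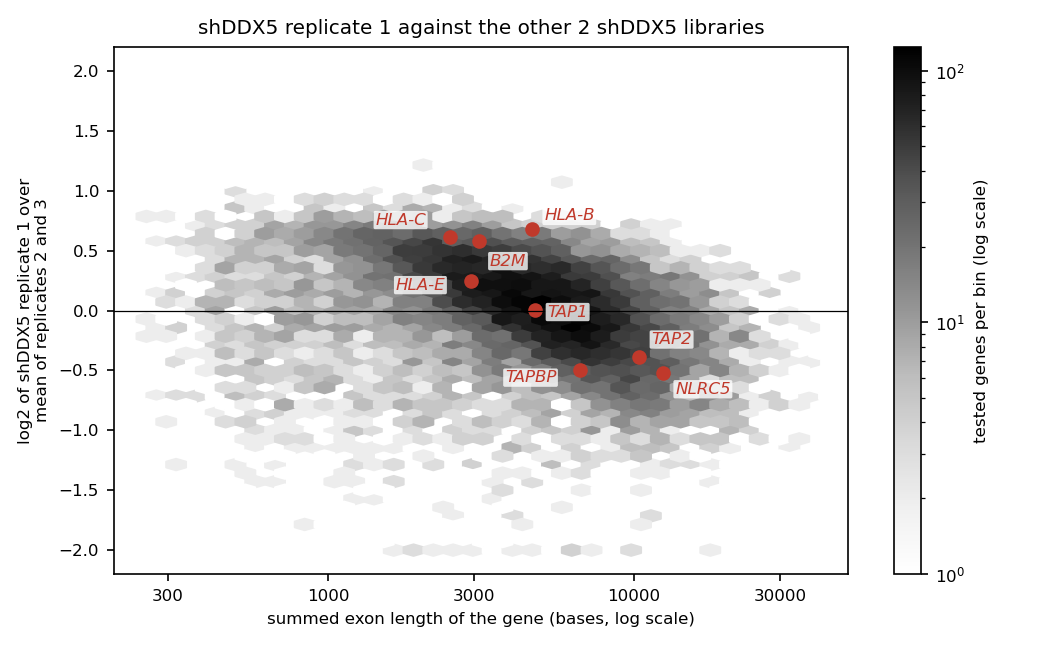
Log2 of shDDX5 replicate 1 over the mean of replicates 2 and 3 (y axis, values beyond 2 drawn at 2) against summed exon length on a log axis, for the tested genes within the axis limits (grey bins) and the 8 genes described (red). Short genes lie mostly above 0 and long genes below it; HLA-B at 0.68 and HLA-C at 0.61 are near the upper edge and TAP1 is at 0.00.

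Around these genes, 10 lists of the pathway, with 135 genes listed, were read by their counts and medians beside the same over all genes, whose median log2 change was -0.00071 in the knockdown and 0.01 with RX-5902. The background shares of calls are those given above for each direction, also for the knockdown without shDDX5 replicate 1. A value in parentheses after a gene's knockdown change is that without shDDX5 replicate 1. Other class I and class I-like chains rose in 7 of 9 tested genes in the knockdown and fell in 1 (median 0.94), and in 9 of 10 and 1 without shDDX5 replicate 1 (median 0.88). With RX-5902, 3 of 8 rose and 1 fell (median 0.06). FCGRT, the Fc receptor that recycles IgG, rose by 1.08 (0.88) and MR1, which shows microbial metabolites to T cells, by 0.77 (0.89) in the knockdown. CD1D, which presents lipids, rose by 0.61 (0.51) in the knockdown and fell by 1.02 with the compound.

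The proteasome genes that make the peptides mostly fell with RX-5902. In the knockdown most of them did not pass the test with all libraries, and more passed, in either direction, without shDDX5 replicate 1. Of 7 genes of the immunoproteasome and its activator, 2 rose and 0 fell in the knockdown (median 0.25), and 3 rose and 1 fell without shDDX5 replicate 1 (median 0.0089). All 7 fell with RX-5902 (median -0.33). PSME1, a subunit of the activator ring, rose by 0.80 (0.64) in the knockdown. PSMB8, the immunoproteasome's chymotrypsin-like subunit, rose by 0.54 (0.28) in the knockdown, a call lost when any 1 shControl library was left out (edgeR adjusted p 0.0841 to 0.102), and fell by 0.45 with RX-5902. PSME3, the nuclear activator, fell by 0.75 with the compound. Of the 3 constitutive catalytic subunits, 2 rose and 0 fell in the knockdown, with 2 higher and 1 lower without replicate 1, and 0 rose and 2 fell with RX-5902. PSMB5 was at 0.69 (0.47) and -0.42 in the respective comparisons, both called. The other of the 2, PSMB7, lost its knockdown call with the gene length correction (edgeR adjusted p = 0.0577), against a fold of 1.2 (0.0698) and without any 1 shControl library (0.0583 to 0.0806).

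Peptide trimming and loading genes of the endoplasmic reticulum were mixed in the knockdown, with 5 of 15 higher and 6 lower (median 0.07), and 7 and 6 without shDDX5 replicate 1 (median 0.09). With RX-5902, 2 rose and 12 fell (median -0.41). PDIA3, the disulfide isomerase bound to tapasin in the loading complex, rose by 1.14 (1.04) in the knockdown. HSPA5, the chaperone BiP, rose by 0.98 (0.99) in the knockdown and fell by 0.94 with the compound. CALR, which holds the heavy chain during loading, fell in both, by 0.89 (-0.92) and by 0.98, and CANX, its membrane relative, fell by 0.49 with RX-5902. ERAP2, which trims peptide ends, fell by 1.10 (-1.04) in the knockdown.

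Transcription factors of the class I promoters rose in 11 of 21 genes and fell in 4 in the knockdown (median 0.31), with 11 and 5 without shDDX5 replicate 1 (median 0.29), and rose in 10 and fell in 4 with RX-5902 (median 0.13). Factors of interferon signalling had the largest rises of the list in the knockdown: IRF7 rose by 2.27 (2.15) and STAT2 by 1.53 (1.64). With RX-5902, IRF7 rose by 1.00 and STAT2 by 0.85. The NF-kB genes RELB and NFKB2, which form the noncanonical dimer, rose by 2.33 and 2.21 with the compound, and IRF8, a myeloid factor, fell by 1.31. RFX5, a subunit of the complex that binds the X box before class I genes, fell by 1.05 (-0.95) in the knockdown. Among 23 interferons, receptors and kinases, 12 were tested, of which 8 rose and 1 fell in the knockdown (8 and 2 without replicate 1) and 10 rose and 1 fell with RX-5902. SOCS1 and SOCS3, feedback inhibitors of JAK kinases, rose by 1.47 (1.23) and 1.25 (1.11) in the knockdown, and SOCS3 by 1.41 with the compound.

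Genes that restrain class I were split in the knockdown, with 3 of 10 higher and 3 lower, and 5 and 4 without shDDX5 replicate 1, and with RX-5902 5 rose and 0 fell. EZH2 and EED of the repressive PRC2 complex fell by 1.17 (-1.15) and 0.93 (-0.95) in the knockdown, while EZH2 rose by 0.33 with RX-5902. SUSD6 and TMEM127 act together in class I degradation. SUSD6 rose by 1.01 with the compound, and TMEM127 rose by 0.87 (0.92) in the knockdown and 0.33 with the compound. Class II genes were mostly too low to test: of 15 listed, 7 were tested in the knockdown, with 3 higher and 1 lower (3 and 2 of 8 without replicate 1), and 5 with RX-5902, with 1 higher and 1 lower. HLA-DMB, a class II peptide editor, rose by 1.34 (1.23) in the knockdown.

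Ligands of natural killer receptors rose in 4 of 11 genes and fell in 4 in the knockdown, with 4 and 5 without shDDX5 replicate 1, and rose in 6 and fell in 3 with RX-5902. CD48, the ligand of the 2B4 receptor, fell by 3.72 (-3.89) in the knockdown, and CD58, the ligand of CD2, rose by 1.07 (1.02). The NLR relatives of NLRC5 fell in 5 of 9 genes and rose in 1 in the knockdown (median -0.77), with 5 and 2 without replicate 1 (median -0.67), and 3 rose and 3 fell with RX-5902. NLRC3 fell by 1.91 (-1.75) in the knockdown and by 0.40 with the compound, and NOD2, a sensor of bacterial wall peptides, fell by 1.86 (-1.48) and rose by 1.82 in the respective comparisons. NLRC5 itself did not pass the test in the knockdown, as given above.

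**Figure D5:**
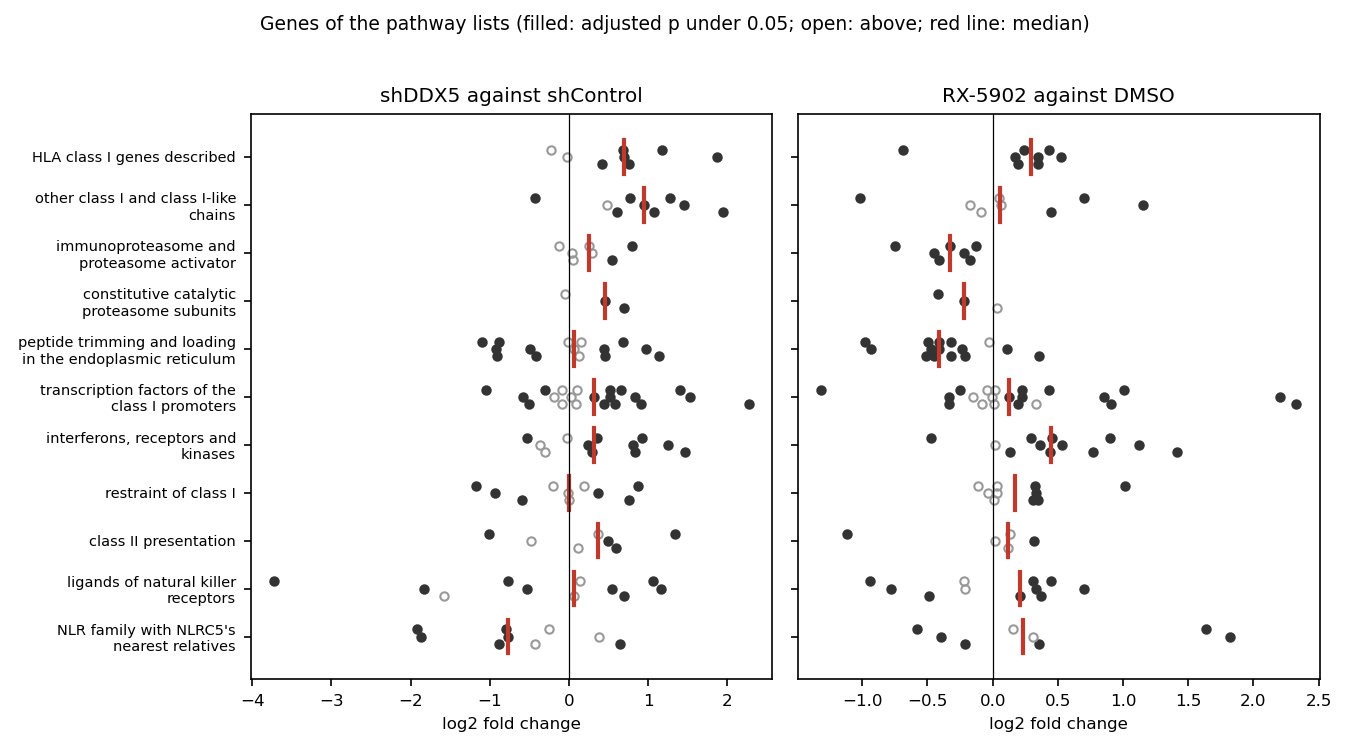
Log2 fold change (x axis, a range of its own in each panel) of the tested genes of the class I set and 10 pathway lists, by list on the y axis; filled points passed an edgeR adjusted p of 0.05, open points did not, and red lines are medians. The median of the immunoproteasome list is 0.25 in the knockdown, 0.0089 without shDDX5 replicate 1, and -0.33 with RX-5902, where all its points lie below 0.

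The genes whose profile was most like that of TAP1, HLA-B and B2M were found among 9466 candidates, by the root mean square difference of log2 CPM over the 12 libraries after the mean of each experiment's controls was taken off. For TAP1 they were ALAS1 (0.0896), the first enzyme of heme synthesis, INPP5A (0.103), an inositol phosphatase, and MXD1 (0.107), a partner of MAX. For HLA-B they were SH3BGRL3 (0.0550), the metallothionein MT1E (0.0659) and SNAPIN (0.0694). For B2M they were SDF2 (0.0469), the galectin LGALS1 (0.0556) and RAB9A (0.0565). None of the 9 was from the class I pathway lists. Those lists hold 135 genes beside 9466 candidates, so nothing is drawn from this absence.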

How the data were processed

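RNA of 12 MOLM-14 libraries was measured by RNA-seq, with RNA taken by Trizol and RNeasy columns and libraries made with the MGIEasy Fast RNA kit, per the labels' protocols. The deposited values were raw counts per gene, not normalized by the authors, in 1 table per experiment. Per the submitters' processing notes, the build was GRCh38.p13 and the tools included STAR 2.7.9a and featureCounts (Subread 2.0.3), beside Trim Galore 0.6.7 and Picard 2.8.0. Not given in the sources used here were the annotation release, the strand setting and the treatment of reads with several hits, so reads of antisense partners cannot be told apart.

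The line of 1 gene, wrapped over 3 lines, was rejoined. Symbols were matched by versioned identifier for 59984 genes and without version for 1773, and 149 had none. Coordinates are outermost exon ends in the deposited tables. Each experiment was fitted on its 6 libraries with edgeR 4.0.16 in R 4.3.3 (filterByExpr, TMM, quasi-likelihood F test, two-sided, Benjamini-Hochberg). Intervals cover 95%. The comparison of changes used 12 libraries and 4 group means. Levels carry SDs over 3 libraries. The code was tested on simulated data. Alternatives were DESeq2 1.42.0, RLE and upper-quartile factors, no filter, a stricter filter (at least 5 CPM in 3 libraries), each library left out, a replicate block, all libraries in 1 fit, a gene length correction with and without the block, and a test against a fold of 1.2.

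Pathway genes were named by a rule: up to 3 called genes with the smallest p per list, comparison and direction. For some of them the value in the other comparison is also given. Where that value is left out, the gene may still have changed there, in the same or the opposite direction. Some genes that the rule names are not reported here. Like profiles were sought among genes averaging 5 CPM or more, 3 per gene. The members and lists were chosen with earlier results of these data known. The edgeR p-values set group differences against the spread between these replicates, which edgeR moderates over all genes.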

Additional observations from a re-analysis of the deposited data

Results flagged for a closer look

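For 5 of 8 tested genes, the knockdown change differed from the RX-5902 change in the edgeR test of the difference, over all 12 libraries. Of these, 4 had a higher change in the knockdown and 1 a lower one. Among all genes tested, 24.1% were called higher and 28.6% lower. The difference, knockdown minus compound on the log2 scale, was 1.32 for TAP1, 0.99 for HLA-C, 0.65 for TAP2, 0.32 for HLA-E and -0.44 for NLRC5. TAP1, HLA-C and TAP2 were also called against a fold of 1.2, and HLA-E and NLRC5 were not.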

How the results depend on the processing

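The knockdown count of 6 genes higher ranged from 5 to 6 when a library was left out, with TAPBP the gene lost. With RX-5902, 7 genes were higher in the report and 4 both in the fit of all 12 libraries and against a fold of 1.2. The 1 gene with a lower change in the knockdown than with the compound (NLRC5) became 0 with upper-quartile factors, with the gene length correction, with that correction and the replicate block, and against a fold of 1.2, and 0 to 1 when a library was left out. The 4 with a higher change ranged from 3 (against a fold of 1.2) to 6 (no filter on low counts, or without shDDX5 replicate 1 or 2). TAP2 in the knockdown, at -0.02, was 0.042 with upper-quartile factors, 0.013 with the stricter filter, 0.14 with the gene length correction, with or without the block, and -0.098 to 0.10 when a library was left out. PSMB9 in the knockdown ranged from -0.033 (without shDDX5 replicate 1) to 0.38 when a library was left out, and the TAPBP difference between the experiments from -0.029 (without shDDX5 replicate 3) to 0.22. The cause was not tested.

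Same-numbered libraries showed no shared deviation: their deviations correlated at -0.07 to 0.03 in the knockdown and -0.04 to 0.02 in the compound experiment. With 3 libraries per group, this cannot tell whether samples of the same number were handled as pairs. With the replicate block, 5 class I genes rose in the knockdown, TAPBP having an edgeR adjusted p of 0.0507, and 7592 genes were called against 8204. With RX-5902 the counts with the block were 7 higher and 1 lower, and for the difference 4 higher and 1 lower. HLA-E also lost its difference with the gene length correction and block (edgeR adjusted p = 0.0642). Over single genes, 2626 values stayed on their side of the threshold, 121 were weaker, 22 stronger and 8 changed sign.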
